A study of Mus musculus with 2 samples.

Results

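The fibroblasts described here are 436 barcodes of mouse skin in which the genes Cilp, Thbs4, Myoc and Hmcn2 stood out. They were chosen among 3523 fibroblast barcodes, so they made up 12.4% of these (95% Clopper-Pearson interval 11.3% to 13.5%) and 5.21% (4.74% to 5.71%) of the 8367 barcodes in all. A barcode counted as a fibroblast when it held at least 200 genes, at most 20% mitochondrial UMIs (unique molecular identifiers, each standing for 1 captured RNA molecule), at least 10 UMIs of Col1a1, Col1a2, Col3a1 and Dcn together, no UMI of the leukocyte gene Ptprc and at most 2 UMIs of the keratins Krt5 and Krt14. For each fibroblast the counts per 10000 UMIs were summed over 6 sets of 4 genes, log transformed and expressed as z-scores, and a member had its highest z-score, above 0, for Cilp, Thbs4, Myoc and Hmcn2. The other 3087 fibroblasts scored highest for Crabp1, Slc26a7, Dkk2 and Notum (302, the Crabp1 set), for Cyp2f2, C1qtnf3, Cyp26b1 and Ecm2 (442, the Cyp2f2 set), for Cxcl13, Vegfd, Adm and Mmp3 (874, the Cxcl13 set), for Rasgef1c, Cd55b, Adamts9 and Dcbld2 (727, the Rasgef1c set) or for Nova1, Nkain2, Zfpm2 and Nox4 (645, the Nova1 set), and 97 scored above 0 for none.

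The skin came from C57BL/6 mice aged 8 weeks and was digested with Liberase and DNase. Some animals had lost their neutrophils through the Ly6G antibody 1A8, given on 2 consecutive days, and the series asks what that depletion changes in skin. Cells of depleted and control skin were tagged with hashtag antibodies and pooled into 1 RNA library, whose matrix holds 0 hashtag rows, so no barcode could be given a condition and every value describes the pool. With 1 library there is no replicate and no test. Intervals in parentheses are 95% intervals (exact Poisson for UMIs, exact conditional for ratios, Clopper-Pearson for shares) and cover counting error only, not variation between cells or animals. Members held 4153429 UMIs, against 36934068 UMIs in the other fibroblasts. The median barcode held 9196 UMIs and 2938 genes in members, and 11719 UMIs and 3348 genes in the other fibroblasts. Mitochondrial UMIs had a median of 1.25% in members and 0.966% in the other fibroblasts, and a doublet caller marked 5 members (1.15%) and 44 other fibroblasts (1.43%). All 8367 barcodes were distinct.

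Fibroblasts of skin build the collagen and elastic matrix of the dermis and of the fascia, the loose connective tissue sheet beneath it, and their gene programs vary with depth and with the structure they line. Cilp encodes cartilage intermediate layer protein, a secreted matrix protein that binds TGF-beta. Thbs4 encodes thrombospondin 4, a matricellular glycoprotein of tendon and muscle connective tissue, Myoc encodes myocilin, a secreted glycoprotein best known from the trabecular meshwork of the eye, and Hmcn2 encodes hemicentin 2, a large extracellular protein built mainly of immunoglobulin repeats. The working name of these cells places them in fascia, but position cannot be read from dissociated cells, so they are called by their genes below. Of 12 measured genes on a list of fascia and deep dermis genes, 1 was more than 2-fold higher in members (2.7% of all genes were) and 2 were more than 2-fold lower (4.43% of all genes were), 1 of which rests on 2 UMIs in members. Members were the highest of the 6 fibroblast sets for 5 of the 12.

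The promoters of the 4 genes that chose the cells are shown because these genes were detected together in part of the same barcodes, as counted below. Each sequence runs from 250 bases before to 50 bases after the start that RefSeq's promoter window takes, on assembly GRCm38.p6, read 5′ to 3′ on the gene's own strand. They lie at chr9:65264930-65265229 on the plus strand (Cilp), chr13:92794769-92795068 on the minus strand (Thbs4), chr1:162638900-162639199 on the plus strand (Myoc) and chr2:31314082-31314381 on the plus strand (Hmcn2). GENCODE, on the same assembly, starts the Myoc gene at 162639155 and the Hmcn2 gene at 31314415, so by that annotation the Hmcn2 window ends before the gene, and distances below are from the start of the RefSeq window. Capitals mark matches, on either strand, to TATAAA, the TATA box, to GGAATG, bound by TEAD factors, to TGANTCA, the AP-1 element, to CCAAT, the CCAAT box, or to GGGCGG, the GC box.
Cilp: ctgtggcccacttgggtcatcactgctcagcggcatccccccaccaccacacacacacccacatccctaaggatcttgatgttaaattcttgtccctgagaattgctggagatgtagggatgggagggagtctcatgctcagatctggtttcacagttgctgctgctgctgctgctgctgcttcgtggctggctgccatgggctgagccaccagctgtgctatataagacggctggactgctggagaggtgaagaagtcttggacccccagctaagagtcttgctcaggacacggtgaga
Thbs4: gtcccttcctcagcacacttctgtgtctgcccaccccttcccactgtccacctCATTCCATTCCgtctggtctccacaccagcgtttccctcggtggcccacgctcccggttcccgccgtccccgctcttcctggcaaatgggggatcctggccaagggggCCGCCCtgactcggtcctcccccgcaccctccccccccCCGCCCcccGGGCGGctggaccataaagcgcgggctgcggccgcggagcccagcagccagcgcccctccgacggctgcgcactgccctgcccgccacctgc
Myoc: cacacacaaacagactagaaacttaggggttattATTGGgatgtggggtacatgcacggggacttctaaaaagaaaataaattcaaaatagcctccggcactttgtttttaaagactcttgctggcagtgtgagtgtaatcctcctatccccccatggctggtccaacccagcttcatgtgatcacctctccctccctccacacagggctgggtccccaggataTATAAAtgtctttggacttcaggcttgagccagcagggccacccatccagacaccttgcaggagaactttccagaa
Hmcn2: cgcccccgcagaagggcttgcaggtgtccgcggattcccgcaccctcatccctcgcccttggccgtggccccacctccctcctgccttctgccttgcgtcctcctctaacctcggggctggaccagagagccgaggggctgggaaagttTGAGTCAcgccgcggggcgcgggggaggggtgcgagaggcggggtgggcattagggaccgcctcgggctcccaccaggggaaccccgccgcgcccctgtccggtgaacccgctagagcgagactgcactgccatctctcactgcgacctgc
Each of the 5 strings was found in 1 of the 4 promoters, and the Cilp window held no exact match to any. The Cilp window does hold tatataag, a TATA-like stretch that the string TATAAA misses, so the search does not show which of the 4 promoters have a TATA box. TATAAA stood 26 bases before the start of Myoc and is held by 13.6% of 32851 RefSeq promoters of the same length. A CCAAT match, on the reverse strand, began 216 bases before the start of Myoc, and 37.4% of promoters hold one. GGAATG occurred on the reverse strand 197 and 192 bases before the start of Thbs4 (14.7% of promoters hold it), and GGGCGG 89, 51 and 42 bases before it (35.7%). TGANTCA occurred 101 bases before the start of Hmcn2 (7.81%). The motifs do not overlap each other apart from the 2 GGAATG matches, which share a base. Among the 15 genes with the largest ratios below, 11 had a promoter in the table: 0 held TATAAA, 3 GGAATG, 0 TGANTCA, 4 CCAAT and 5 GGGCGG. These matches are letters in a window and no sign of binding.

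The 4 genes chose the members, so their levels are given as a description. Levels are in CPM, the UMIs of a gene per 1000000 UMIs, summed over the barcodes of a group. Cilp had 1121 CPM (1089 to 1154) in members and 78.1 CPM in the other fibroblasts, where the Cyp2f2 set had 401 CPM, the Crabp1 set 313 CPM and the other 3 sets 6.76 to 19.6 CPM. Myoc had 1104 CPM (1072 to 1137) in members and 36.8 CPM in the other fibroblasts, with 122 CPM in the Crabp1 set and 18.8 to 48.6 CPM in the other sets. Hmcn2 had 240 CPM (226 to 256) in members against 3.44 CPM in the other fibroblasts, and its next level was 22.9 CPM in the Cyp2f2 set. Thbs4 had 358 CPM (340 to 376) in members and 0.975 CPM in the other fibroblasts, with 7.82 CPM in the Cyp2f2 set and 0 UMIs in the Nova1 set, which allows up to 0.418 CPM. Cilp and Myoc thus occurred at lower levels in every other set, whereas Thbs4 and Hmcn2 were near 0 outside members and the Cyp2f2 set.

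**Figure D1:**
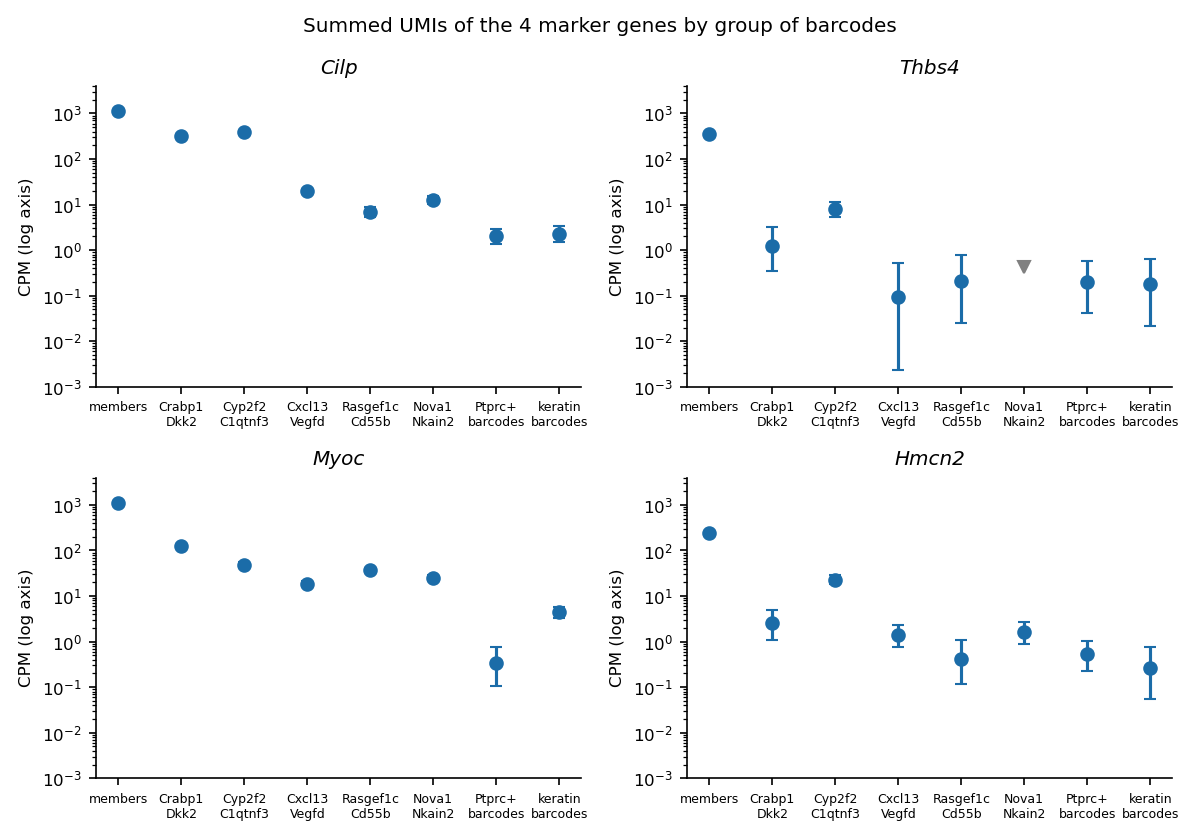
Summed level of Cilp, Thbs4, Myoc and Hmcn2 (CPM, log axis) in members, in the 5 other fibroblast sets, and in barcodes with leukocyte or keratinocyte genes; points are group values, bars 95% exact Poisson intervals, and a grey triangle is the upper limit of a group with 0 UMIs. Members are highest for all 4 genes, which the rule fixes, and the Cyp2f2 set is next for Cilp, Thbs4 and Hmcn2 while the Crabp1 set is next for Myoc.

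The 4 genes were spread unevenly over members. Myoc had a UMI in 76.8% of members (72.6% to 80.7%), with a median of 7 and a maximum of 69 UMIs, against 12.7% of the other fibroblasts. Cilp had a UMI in 64.7% (60.0% to 69.2%), with a median of 4 and a maximum of 112, against 14.5%. Hmcn2 had a UMI in 41.7% (37.1% to 46.5%), with a maximum of 25, against 2.17%. Thbs4 had a UMI in 82 members, 18.8% (15.2% to 22.8%), with a maximum of 96, against 0.518%. The 10 members richest in Thbs4 held 46.6% of its UMIs in members, so its group level rests on few cells, while for Cilp, Myoc and Hmcn2 that share was 16.5%, 11.7% and 17.1%. Free RNA can place a UMI in a cell that does not express a gene. After each barcode was thinned to 3000 UMIs, which left out 21 members and 109 other fibroblasts, Myoc was seen in 69.9% of members, 6.18% of other fibroblasts and 1.17% of keratinocyte barcodes (median depth 10797.5 UMIs). Cilp was seen in 58.3% of members, 8.596% of other fibroblasts and 0.586% of keratinocyte barcodes, Hmcn2 in 29.4%, 1.04% and 0.0977%, and Thbs4 in 15.9% of members, 0.302% of other fibroblasts and 0 of 1024 keratinocyte barcodes (up to 0.360%).

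Members fell into groups by which of the 4 genes they held. All 4 were detected in 64 members (14.7%), 3 in 83, 2 in 87 and 1 in 202 (46.3%). Among the members with 1 gene, 126 held Myoc alone (28.9% of members), 63 Cilp alone (14.4%), 9 Hmcn2 alone and 4 Thbs4 alone. Median depth was 9449 UMIs with 1 gene and 8679 UMIs with 4, so the members with more genes were not the deeper ones. Thbs4 rarely occurred by itself: of the 82 members with it, 75 also held Cilp, 72 Hmcn2 and 70 Myoc. Hmcn2 was detected in 87.8% of the members with Thbs4 and in 31.1% of those without it, and in 57.1% of those with Cilp and 13.6% of those without it. Myoc went the other way with Cilp, being detected in 68.8% of members with Cilp and 91.6% of those without it, which the rule partly fixes since a member needs a gene of the set. Outside members, 3 or more of the genes were detected in 5 barcodes of the Cyp2f2 set, 2 of the Crabp1 set and no barcode of the other 3 sets, which the rule largely fixes, since a barcode with that many of the genes scores high for them.

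When 1 gene was left out of the rule, the members were chosen by the remaining 3, without the level of that gene. The set of genes was itself chosen with earlier results of these data known, which partly fixes the ratios. They are therefore given as a description and are no separate support for the set. Members chosen without Thbs4 (440) had 346 CPM of Thbs4 against 1.76 CPM in the rest, 196-fold higher (153 to 256). Members chosen without Hmcn2 (427) had 220 CPM of Hmcn2 against 5.90 CPM, 37.4-fold higher (32.2 to 43.5). Members chosen without Myoc (344) had 795 CPM of Myoc against 88.03 CPM, 9.03-fold higher (8.57 to 9.51), and those chosen without Cilp (435) had 761 CPM of Cilp against 117 CPM, 6.51-fold higher (6.22 to 6.82). Of the 436 members, 287 were kept without Myoc, 359 without Cilp, 416 without Hmcn2 and 431 without Thbs4.

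The rule draws a line through a continuum. The z-score was above 0 in 1002 fibroblasts, of which 566 scored higher for another set, 189 of them for the Cyp2f2 set and 149 for the Crabp1 set. Member z-scores ran from 0.162 to 4.01 with a median of 1.99, and 60 members and 77 other fibroblasts lay within 0.25 of the next set. The member nearest the line scored 0.948 with 0.942 for its next set, and the nearest fibroblast outside scored 1.93614 with 1.93624 for the set that took it.

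By genes that the rule did not use, part of the members lay together. The 4 genes were chosen with earlier results of these data known, which partly fixes this. The shares below are therefore a description and no separate support for the set. Each fibroblast's 15 nearest neighbours were found from the variable genes other than the 24 set genes and 7 filter genes. On average 42.4% of the neighbours of a member were members, against 6.70% of the neighbours of another fibroblast, where members are 12.4% of all fibroblasts. This share was 16.9% in members with 1 of the 4 genes, 40.5% with 2, 70.7% with 3 and 88.9% with 4. In members with Myoc alone it was 13.9%, which is near the 12.4% of members among all fibroblasts. The Cxcl13 set gave 34.2% of their neighbours, where it is 24.8% of fibroblasts, while the Rasgef1c set gave 19.2% (20.6% of fibroblasts) and the Nova1 set 14.3% (18.3%). In members with Cilp alone it was 21.8%, and 34.2% of their neighbours were of the Cyp2f2 set, which is 12.5% of fibroblasts. Among the other sets the share was highest in the Cyp2f2 set, at 15.02%, and between 3.73% and 7.35% in the rest. Values for the members with 3 or 4 genes (147) and for those with Myoc alone are therefore given beside the group values.

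**Figure D2:**
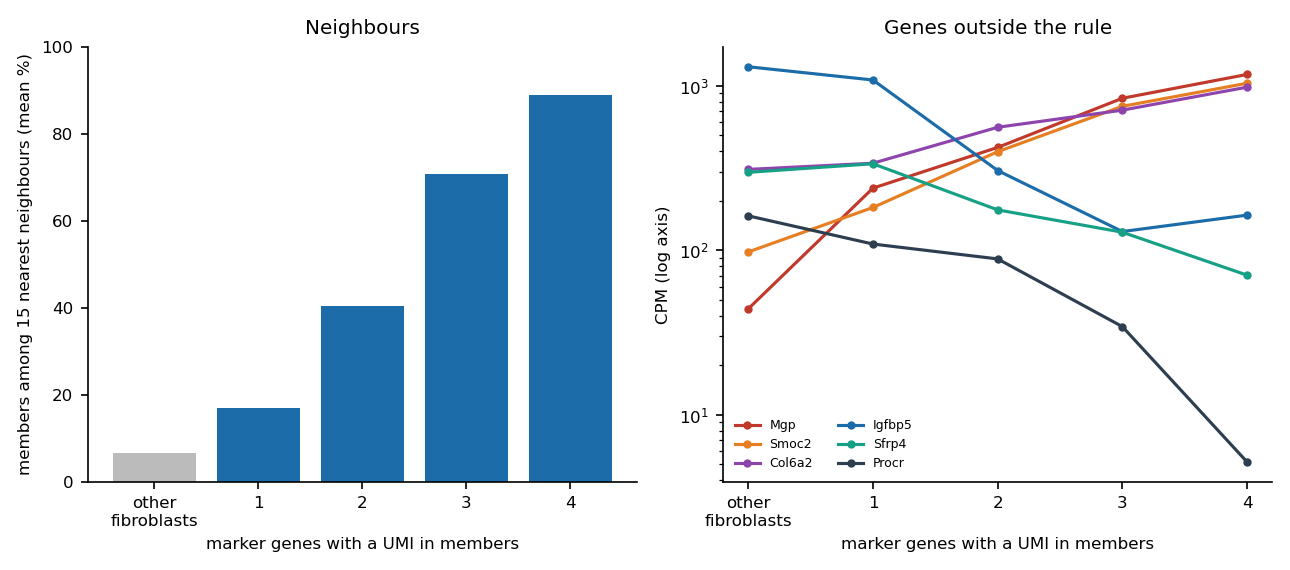
Left, mean share of members among the 15 nearest neighbours (%, from genes outside the rule) of the other fibroblasts and of members with 1 to 4 of Cilp, Thbs4, Myoc and Hmcn2 detected; right, level (CPM, log axis) of 6 genes outside the rule in the same groups. The neighbour share is 6.70% in the other fibroblasts and 88.9% in members with 4 genes, which the choice of the 4 genes partly fixes. Mgp, Smoc2 and Col6a2 are highest, and Igfbp5, Sfrp4 and Procr lowest, at the right-hand end or next to it.

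The members were next set against the other fibroblasts over all genes outside the rule, to see what else they carried. Of 12653 genes with at least 50 UMIs over both groups, 341 (2.7%) were more than 2-fold higher in members and 560 (4.43%) more than 2-fold lower, and the median log2 ratio was 0.03. The interval lay wholly past 2-fold for 152 (1.2%) and 102 (0.806%) of them. Both counts depend on the UMI minimum, and the count of higher genes was 536 without the members with Myoc alone and 547 when Myoc was left out of the rule. Of the 341 higher genes, 216 (63.3%) had their highest level of the 6 sets in members, 86 in the Cyp2f2 set, 39 in the Crabp1 set and 0 in the other 3. Taking genes that are higher in members than in the other sets pooled largely fixes this order, so nothing is read from it. No test is given, since the same cells were chosen by their expression.

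The 15 genes with the largest ratios among those seen in at least 10% of members encode proteins of several kinds. Bmp5, a bone morphogenetic protein ligand, had 37.1 CPM in members against 0.812 CPM, 45.6-fold higher (30.7 to 69.9). Frmpd4, a scaffold protein known from synapses, had 77.0 CPM against 2.17 CPM (35.6-fold, 27.8 to 46.0). Col8a1, a short-chain network collagen, had 42.6 CPM against 1.27 CPM (33.5-fold, 24.2 to 47.2), and Meox1, a mesodermal homeobox transcription factor, 35.6 CPM against 1.57 CPM (22.7-fold, 16.6 to 31.3). Gfra1, the co-receptor for the neurotrophic factor GDNF, was 19.7-fold higher (15.4 to 25.2), and Fbln7, a fibulin, 14.03-fold higher (10.7 to 18.5). These 6 genes were seen in 55 to 85 members each.

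Other genes of the 15 encode more abundant matrix or secreted proteins. Mgp, matrix Gla protein, an inhibitor of tissue calcification, had 526 CPM in members against 44.1 CPM in the other fibroblasts, 11.9-fold higher (11.2 to 12.7), and was seen in 164 members. Mfap4, a microfibril-associated glycoprotein, had 297 CPM against 36.5 CPM (8.13-fold, 7.52 to 8.79), and Angptl1, an angiopoietin-like secreted protein, 159 CPM against 26.2 CPM (6.08-fold, 5.50 to 6.72). Ccn2, the matricellular connective tissue growth factor, had 70.1 CPM against 6.99 CPM, and Cxcl14, a chemokine, 185 CPM against 31.8 CPM. Lsamp, a neuronal adhesion molecule, Ramp1, a part of the receptor for the neuropeptide CGRP, Cdc42ep3, an effector of Cdc42, and Cpxm2, a carboxypeptidase-like protein, were 5.14-fold to 8.48-fold higher. Of the 15 genes, 14 were highest in members among the 6 sets, with Cpxm2 higher in the Cyp2f2 set (29.1 CPM against 21.4 CPM in members). Choosing genes by their ratio over the other sets pooled largely fixes the count of 14, so nothing is read from it. For 11 of the 15 the Cyp2f2 set came highest among the 5 other sets. For 11 the level ascended over the other fibroblasts and members with 1, 2, 3 and 4 of the 4 genes. The ranking, made on UMIs summed over all members, partly fixes that ascent.

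**Figure D3:**
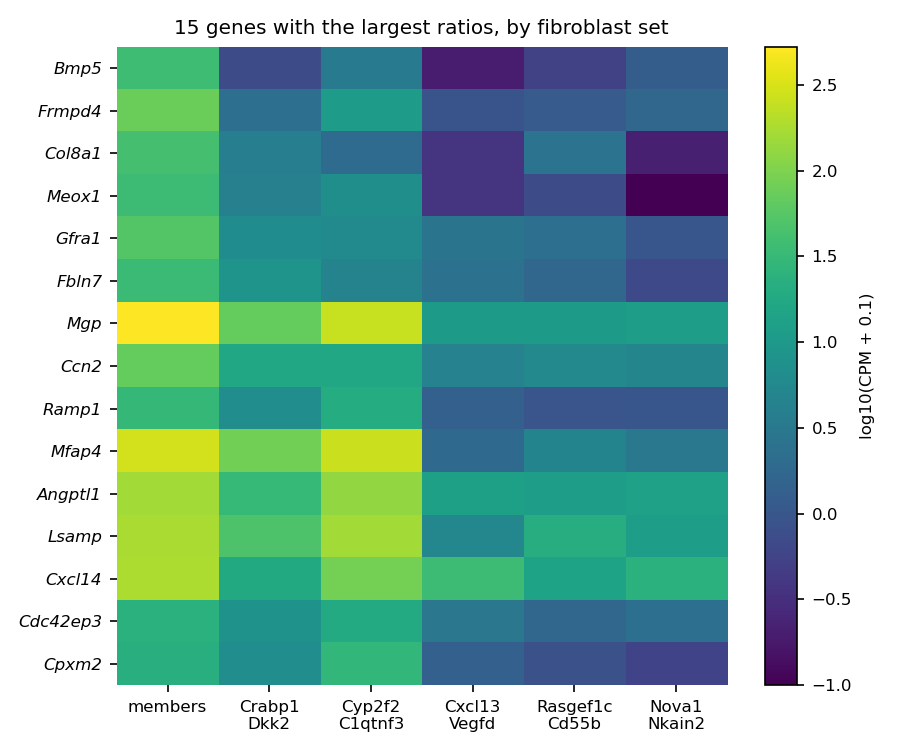
Level of the 15 genes with the largest ratios, as log10(CPM + 0.1), in members and in the 5 other fibroblast sets; each row is a gene and each column a set. Members are highest in 14 rows, which the choice of the genes largely fixes, and the Cyp2f2 set shows the next highest level in 11.

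The same 15 genes differed in level among the kinds of members. They were ranked on UMIs summed over all members, so genes rich in any one kind of member could lead the ranking. Of the 148 Meox1 UMIs in members, 133 lay in members with 3 or 4 of the genes. The differences below are therefore partly fixed by how the genes were chosen. In members with Myoc alone, 3 of the 15 were more than 2-fold above the other fibroblasts, and in members with Cilp alone 13 were. Mfap4 had 2.46 CPM in members with Myoc alone and 297 CPM in those with Cilp alone, beside 990 CPM with all 4 genes. Mgp had 20.5 CPM with Myoc alone, 654 CPM with Cilp alone and 1174 CPM with all 4. Meox1 had 0 UMIs in both the Myoc-alone and the Cilp-alone members and 143 CPM in members with all 4 genes.

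The 10 genes with the smallest ratios, among those seen in at least 10% of the other fibroblasts, were Sntg1, Trpm3, Neto1, Thsd4, Bmp3, Samd5, Pcdh11x, Lrrc8b, Tmem229a and 5033421B08Rik. Sntg1, a syntrophin of the dystrophin complex, had 9.63 CPM in members against 153 CPM in the other fibroblasts, a ratio of 0.0630 (0.0450 to 0.0859). Trpm3, a cation channel, had 4.57 CPM against 37.5 CPM, and Thsd4, an ADAMTS-like protein of fibrillin microfibrils, 19.7 CPM against 92.6 CPM (0.213, 0.169 to 0.265). Pcdh11x, a protocadherin, had 13.7 CPM against 59.5 CPM. Members were the lowest of the 6 sets for 9 of the 10, which choosing the genes by this ratio largely fixes. In members with Myoc alone, who are part of the members ranked, 8 of the 10 were under 0.5 of the level of the other fibroblasts.

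**Figure D4:**
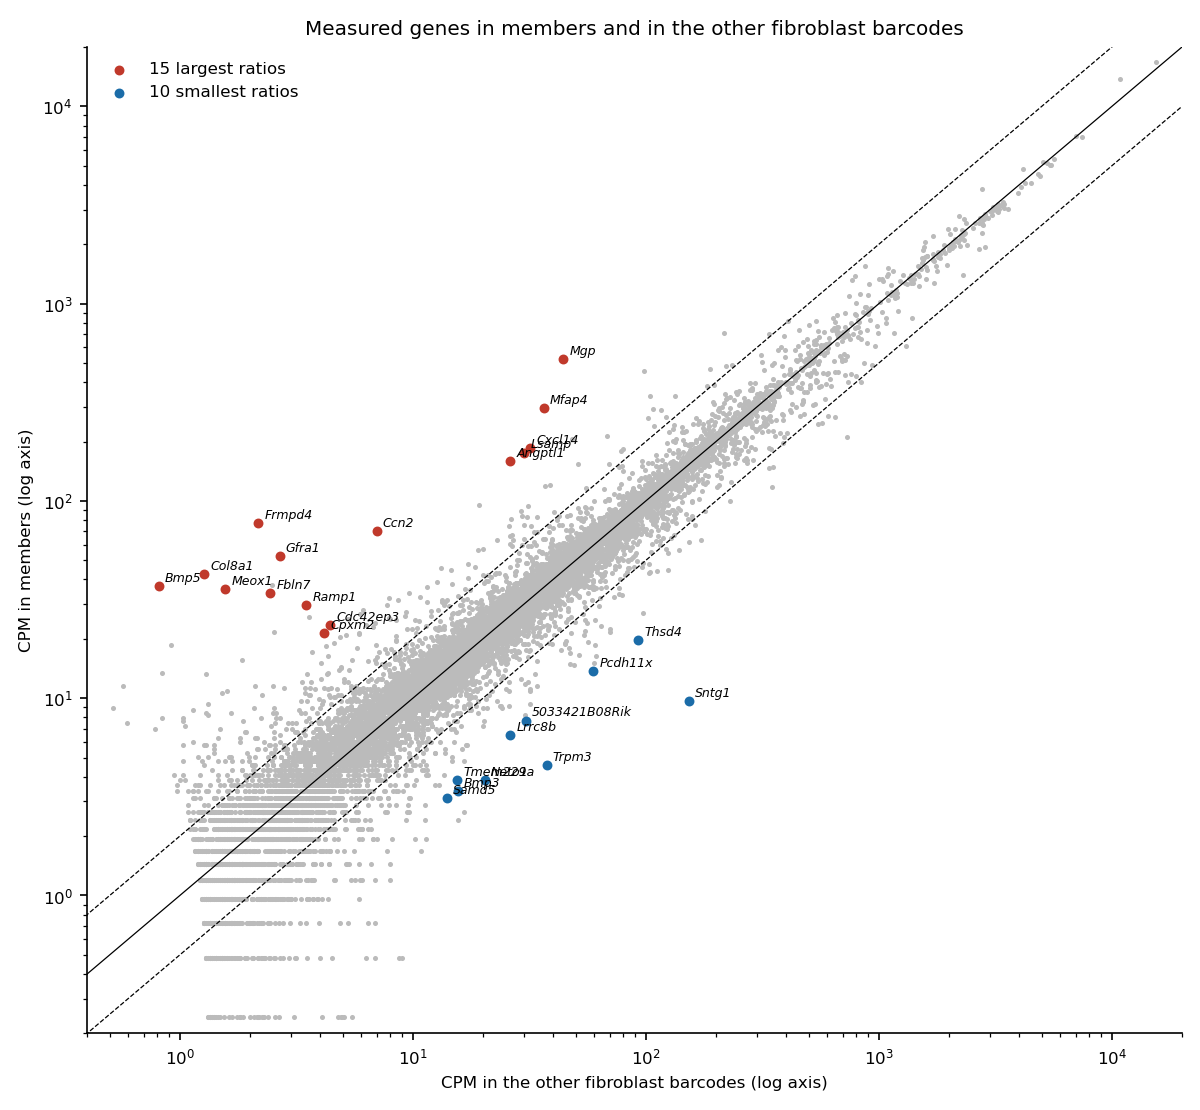
Level of each measured gene (CPM, log axes) in members, vertical, and in the other fibroblasts, horizontal; grey points are genes, red and blue points the 15 largest and 10 smallest ratios, the full line equal levels and the broken lines 2-fold. Genes with 0 UMIs in a group cannot be drawn, most genes lie near the full line, and Bmp5, Frmpd4 and Col8a1 stand farthest above it.

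Gene lists show which functions these differences fall in, read against the 2.7% of genes that were higher and the 4.43% that were lower. Genes named from them beyond the naming rule given under the processing were chosen after their values were seen. Among small leucine-rich proteoglycans, which bind collagen fibrils, 4 of 8 measured genes were higher and 0 lower, with a median log2 ratio of 0.87. Bgn (biglycan) had 711 CPM in members against 216 CPM in the other fibroblasts, 3.29-fold higher (3.15 to 3.43), Podn (podocan) 120 CPM against 38.9 CPM, and Aspn (asporin) 384 CPM against 182 CPM. Fmod (fibromodulin) had 11.3 CPM against 2.79 CPM, but 1 barcode held 76.6% of its UMIs in members. Lum and Ogn, the most abundant of the list, had ratios of 1.10 and 1.08. Bgn was higher still in the Cyp2f2 set, at 813 CPM, and was lower in members with Myoc alone, at 141 CPM. Aspn was higher in the Crabp1 set, at 491 CPM, where Bgn and Podn had 348 CPM and 45.0 CPM.

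Elastic fibre and microfibril genes had 5 of 18 higher and 1 lower, with a median log2 ratio of 0.37. Eln, elastin itself, had 489 CPM in members against 235 CPM in the other fibroblasts (2.09-fold, 1.99 to 2.19), and 1064 CPM in members with all 4 genes. Fbln2 (fibulin 2) had 814 CPM against 406 CPM, and Ltbp4, a binding protein of latent TGF-beta that elastic fibre assembly needs, 341 CPM against 133 CPM. Mfap4 and Fbln7 were the other higher genes. Ltbp1, the relative of Ltbp4, was lower, with 147 CPM against 338 CPM (0.435, 0.4005 to 0.472), whereas the fibrillin gene Fbn1 and Mfap5 had ratios of 0.924 and 0.878. The 2 latent TGF-beta binding proteins therefore stood on opposite sides.

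Fibril-forming collagens outside the filter genes did not stand apart, with 0 of 6 higher, 1 lower and a median log2 ratio of 0.20. Col5a1, Col5a2 and Col5a3, the chains of collagen V that regulate fibril diameter, had ratios of 1.13, 1.08 and 1.44. The 1 lower gene, Col11a1, had 2 UMIs in members, and its log2 ratio was 1.64 in members chosen without Myoc. Of the other collagens 3 of 14 were higher and 0 lower (median log2 ratio 0.63): Col8a1, Col12a1, which coats fibrils, at 81.1 CPM in members against 26.5 CPM, and Col15a1 of the basement membrane zone at 183 CPM against 79.8 CPM. The collagen VI chains, which form beaded filaments, lay above 1 without reaching 2-fold. Col6a1 had 780 CPM against 499 CPM (1.56, 1.51 to 1.62), Col6a2 548 CPM against 311 CPM (1.76, 1.68 to 1.84) and Col6a3 1094 CPM against 747 CPM (1.46, 1.42 to 1.51). Col6a2 had 983 CPM in members with all 4 genes and 327 CPM in those with Myoc alone.

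Basement membrane genes had 0 of 15 higher and 2 lower. Col4a1 had 686 CPM in members against 391 CPM (1.76, 1.69 to 1.83), Lama2 677 CPM against 551 CPM and Nid1 850 CPM against 1072 CPM. Collagen folding and crosslinking genes had 0 of 23 beyond 2-fold in either direction, with a median log2 ratio of 0.07. The collagen chaperone Serpinh1 had 1179 CPM in members and 1181 CPM in the other fibroblasts, and the crosslinking enzyme Lox 238 CPM against 142 CPM. Of the hyaluronan genes 0 of 11 were past 2-fold.

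Adhesive and matricellular glycoproteins had 6 of 25 higher and 2 lower (median log2 ratio 0.21). Smoc2, a SPARC-related calcium-binding protein, had 458 CPM in members against 97.9 CPM in the other fibroblasts, 4.68-fold higher (4.42 to 4.95), and was seen in 315 members. Sparcl1, the SPARC relative hevin, had 89.3 CPM against 29.0 CPM, Ccn5 153 CPM against 69.7 CPM and Vtn (vitronectin) 13.5 CPM against 4.33 CPM. Sparcl1 and Vtn were higher in the Cyp2f2 set, at 138 CPM and 18.3 CPM, while Smoc2 and Ccn5 had 201 CPM and 69.3 CPM there. Tnc (tenascin C) had 21.7 CPM against 2.55 CPM, but 18 members held all of it and 1 of them 50%. Tnn, with 2 UMIs in members, and Spon1, an F-spondin with 100.2 CPM against 230 CPM, were lower. Thbs2 and Thbs3, relatives of Thbs4, had ratios of 0.999 and 1.32.

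A list of tendon and muscle connective tissue genes was read because Thbs4 is known from these tissues. Of 8 measured genes 4 were higher and 0 lower, with a median log2 ratio of 1.01, but 2 of the 4 were Tnc and Fmod, whose UMIs lay in few cells. That median is against the other fibroblasts as a pool. It was 0.12 against the Cyp2f2 set and 0.05 against the Crabp1 set, with 1 of 8 higher and 1 lower in each case. Tnmd (tenomodulin), a tendon cell membrane protein, had 21.4 CPM in members against 5.88 CPM (3.65-fold, 2.82 to 4.69), was seen in 42 members and was higher in the Cyp2f2 set, at 33.7 CPM. The defining tenocyte genes Scx, Comp and Kera lay under the 50 UMI minimum. The 6 tenocyte markers together had 41.2 CPM (35.2 to 47.8) in members against 15.5 CPM (14.2 to 16.8) in the other fibroblasts. In members with 3 or 4 of the genes this sum was 67.4 CPM, with Comp and Kera at 0, and 3 members held 3 or more of the 6 markers. The share of tendon cells in these values was not tested.

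**Figure D5:**
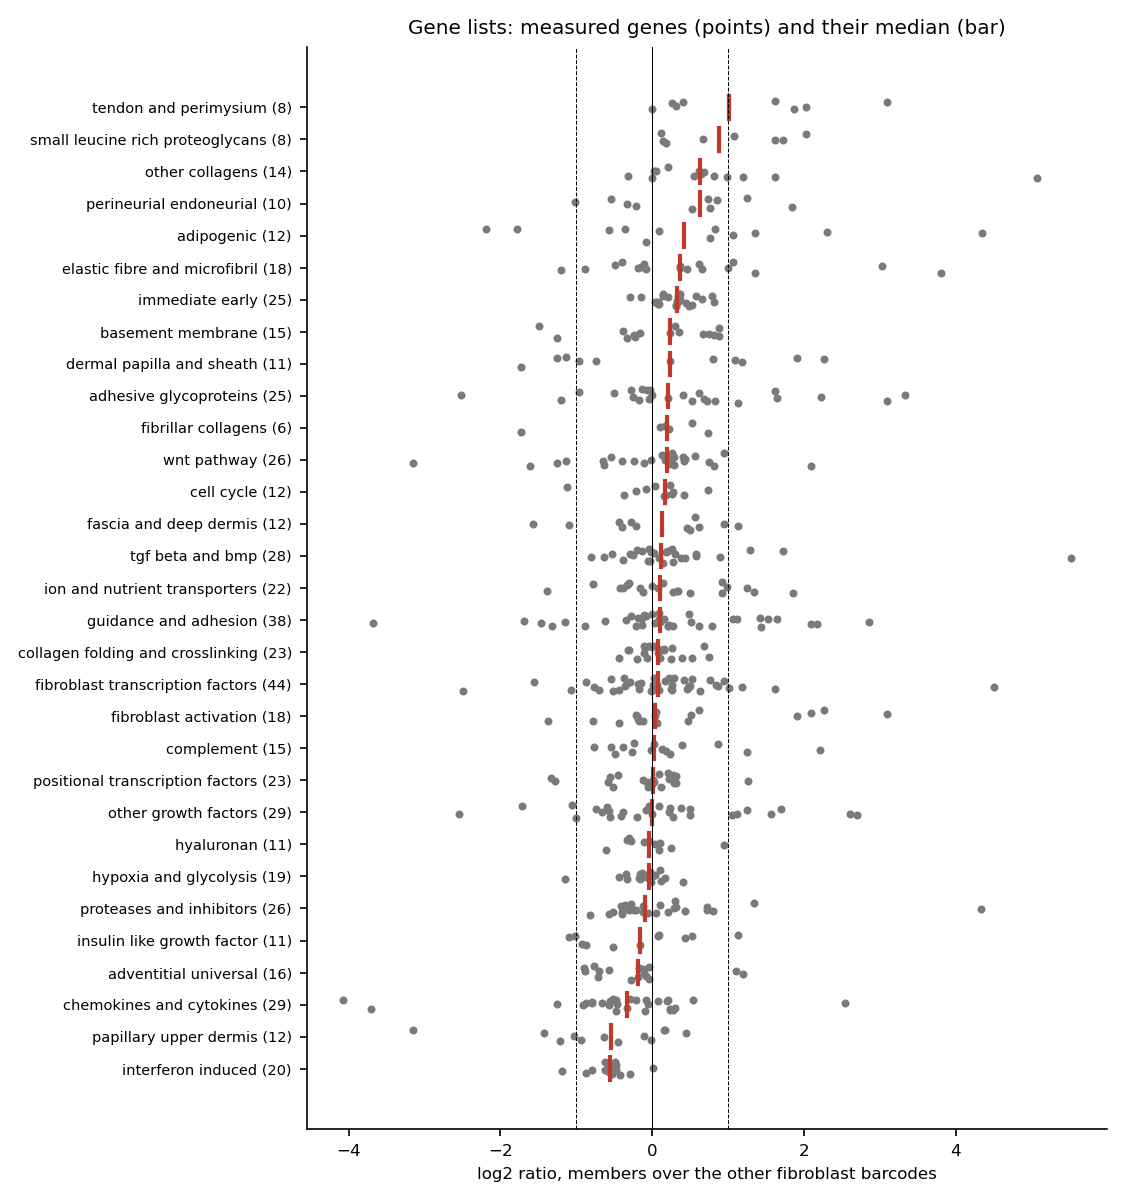
Log2 ratio of members over the other fibroblasts for the measured genes of 31 lists (grey points, number measured in parentheses) with the median of each list (red bar); full and broken lines mark equal levels and 2-fold. Tendon and muscle connective tissue genes and small leucine-rich proteoglycans have the highest medians (1.01 and 0.87), and interferon-induced and upper dermal genes the lowest (-0.56 and -0.54). Against the Cyp2f2 set alone, not drawn, the medians of the tendon and proteoglycan lists are 0.12 and 0.25.

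Among matrix proteases and their inhibitors, 2 of 26 were higher and 0 lower. Adamtsl2, an ADAMTS-like protein of microfibrils, had 18.5 CPM in members against 0.921 CPM in the other fibroblasts (20.1-fold, 13.3 to 31.1) and was seen in 36 members. Adamtsl3 had 75.8 CPM against 29.9 CPM. The inhibitors Timp2 and Timp3 had ratios of 0.825 and 1.34.

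Of the TGF-beta and BMP genes 3 of 28 were higher and 0 lower. Beside the ligand Bmp5 these were Tgfbi, a secreted adhesion protein named for its induction by TGF-beta, at 342 CPM in members against 104 CPM (3.29-fold, 3.09 to 3.50), and the activin subunit Inhbb at 20.7 CPM against 8.50 CPM. In the Cyp2f2 set Tgfbi had 698 CPM, Inhbb 31.6 CPM and Bmp5 3.24 CPM. In the Wnt pathway 1 of 26 was higher and 4 were lower. Sfrp1, a secreted Wnt inhibitor, had 205 CPM against 48.2 CPM (4.26-fold, 3.92 to 4.62), while its relative Sfrp4 had 226 CPM against 298 CPM. In the Cyp2f2 set Sfrp1 had 156 CPM and Sfrp4 169 CPM, both below members. The lower genes were Wnt16, the R-spondins Rspo2 and Rspo3, and Lef1, each with under 20 UMIs in members.

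Growth factors differed in both directions. Igf1 had 267 CPM in members against 122 CPM in the other fibroblasts (2.19-fold, 2.05 to 2.34), while Igfbp5, which binds it, had 609 CPM against 1308 CPM (0.466, 0.448 to 0.485). Of 29 other growth factor genes 7 were higher, among them Fgf9, Pdgfrl, Mdk and Vegfc, and 4 lower, among them Hgf, at 2.89 CPM against 9.53 CPM, and Pdgfd, at 88.8 CPM against 179 CPM. Pdgfrl and Vegfc had 56.3 CPM and 27.9 CPM in members but 78.2 CPM and 34.3 CPM in the Cyp2f2 set. Fgf9 and Mdk had 8.43 CPM and 25.5 CPM in members, and 2.16 CPM and 19.7 CPM in the Cyp2f2 set. The receptors Pdgfra, Fgfr1 and Egfr had ratios of 1.41, 0.870 and 0.941.

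Transcription factors of mesenchyme had 4 of 44 higher and 3 lower. Gli2, an effector of Hedgehog signalling, had 44.8 CPM in members against 14.6 CPM (3.06-fold, 2.58 to 3.62), and 51.3 CPM in the Cyp2f2 set. Meox2 and Klf5 were 2.27-fold and 2.02-fold higher. Gata6 had 11.6 CPM against 34.0 CPM and Creb5 401 CPM against 839 CPM, both lower, and Sox6 had 1 UMI in members. Positional genes had 1 of 23 higher (Hoxb6) and 2 lower (Tbx5, and Pax1 with 0 UMIs in members), and Hoxc8, Hoxc9 and En1 had ratios of 1.15, 0.986 and 0.963.

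Axon guidance and adhesion genes had 9 of 38 higher and 5 lower. The repellent ligand Slit2 had 213 CPM in members against 68.4 CPM (3.11-fold, 2.88 to 3.36), with 374 CPM in the Cyp2f2 set. Itgbl1, an integrin beta-like secreted protein, had 291 CPM against 108 CPM, and Sema5a 74.6 CPM against 25.9 CPM. In the Cyp2f2 set Itgbl1 had 331 CPM and Sema5a 69.6 CPM. Robo1, a receptor of Slit ligands, was lower at 21.7 CPM against 70.0 CPM, and the lower genes also included Sema3a, Sema3e and Efna5. Sema3c had 399 CPM against 739 CPM, a ratio of 0.540.

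Lists of other fibroblast kinds were read to place the members. Upper dermal genes had 0 of 12 higher and 4 lower: Lef1, Col13a1, Trps1 and Col23a1. Trps1, a zinc finger repressor of chondrocyte and hair follicle development, had 24.1 CPM in members against 56.1 CPM, and its lower level did not hold for members chosen without Myoc, whose log2 ratio was 0.16. Adventitial or universal fibroblast genes had 2 of 16 higher, Col15a1 and Penk, and 0 lower, and the abundant Ly6a, Clec3b and Ly6c1 had ratios of 0.883, 0.967 and 0.916. Members were the highest of the 6 sets for 0 of the 16. Col15a1 had 183 CPM in members and 191 CPM in the Cyp2f2 set, and Penk 64.3 CPM and 142 CPM. In the fascia list Gpx3, an extracellular glutathione peroxidase, had 3813 CPM in members against 2764 CPM (1.38) and the tenascin Tnxb 820 CPM against 536 CPM (1.53). Ccn5 was its higher gene, and Procr, the protein C receptor, at 75.8 CPM against 162 CPM, and Plac9a, with 2 UMIs, its lower ones. Adipogenic genes had 4 of 12 higher, with Icam1 at 262 CPM against 102 CPM, F3 (tissue factor) at 95.1 CPM against 19.3 CPM, Bmper at 69.6 CPM against 33.3 CPM and Dlk1 at 11.6 CPM against 0.569 CPM (75% of its UMIs in 10 members), and 2 lower, Fabp4 and Cd36. In the Cyp2f2 set Icam1 had 276.5 CPM, while F3, Bmper and Dlk1 had 70.4 CPM, 27.8 CPM and 0.540 CPM. In dermal papilla and sheath genes 4 of 11 were higher, but 1 barcode held 95.2% of the Acta2 and 83.6% of the Tagln UMIs of members, and with 2 or more of the 4 genes their log2 ratios were -1.56 and -2.99. The other higher genes were Hhip and Mylk, at 5.06 CPM and 22.4 CPM in members. They had 4.86 CPM and 47.2 CPM in the Cyp2f2 set, and 17.2 CPM and 27.8 CPM in the Crabp1 set.

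Interferon-induced genes lay below the other fibroblasts taken as a pool, in most cases by less than 2-fold. Of 20 genes 1 (Ifit3b) was past 2-fold lower, a share near the 4.43% of all genes, and 0 were higher, and the median log2 ratio was -0.56, with 1 of 20 above 0. Ifi27l2a had 1932 CPM in members against 2847 CPM in the other fibroblasts, Isg15 256 CPM against 386 CPM and Cxcl10 221 CPM against 405 CPM. Against the Cyp2f2 set these genes were not lower as a list, with 0 of 20 past 2-fold in either direction and a median log2 ratio of 0.07, and there Ifi27l2a and Isg15 were at 1.47 and 1.39 times the level of the Cyp2f2 set. Chemokines and cytokines had 1 of 29 higher, Cxcl14, and 3 lower. Il33, an alarmin, had 33.2 CPM against 79.1 CPM (0.420, 0.351 to 0.498), while Il1rl1 and Csf2 had 1 and 2 UMIs in members. The neutrophil and monocyte attractants Cxcl1 and Ccl2 had 714 CPM against 990 CPM and 500 CPM against 863 CPM. Of 15 complement genes 2 (C7, with 40.9% of its UMIs in 1 member, and Masp1, whose log2 ratio was -0.99 in members chosen without Cilp) were higher and 0 lower, with C3 at 1972 CPM against 2380 CPM. Immediate early and heat shock genes, which tissue digestion can induce, had 0 of 25 past 2-fold, but 23 of 25 above 0 and a median log2 ratio of 0.33. Fos had 2044 CPM in members against 1581 CPM, and the near-identical copies Hspa1a and Hspa1b 1319 CPM against 766 CPM and 1388 CPM against 789 CPM. The list's median log2 ratio was 0.16 against the Cyp2f2 set and 0.15 against the Crabp1 set. In the Cyp2f2 set Hspa1a and Hspa1b were higher than in members, at 1370 CPM and 1548 CPM, and Fos lower, at 1807 CPM. The part of digestion, or of depth, in the differences above was not tested.

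The remaining lists held few genes past 2-fold. Cell cycle genes had 0 of 12 higher and 1 lower (Mki67, with 3 UMIs in members and a log2 ratio of 0.19 when every barcode weighed the same), and hypoxia and glycolysis genes 0 of 19 higher and 1 lower. Activation genes of myofibroblasts had 4 of 18 higher, namely Acta2, Tagln, Tnc and Sfrp1, and 1 lower, Lrrc15, whose log2 ratio was 0.06 in members chosen without Myoc. As given above, 1 barcode held most Acta2 and Tagln UMIs of members, and few members held Tnc. In members with 2 or more of the 4 genes the log2 ratios of Acta2 and Tagln were -1.56 and -2.99. Nerve sheath genes had 2 of 10 higher, Ntf3 and Cldn1, with 47.4% of the Cldn1 UMIs in 1 member, and 1 lower. Transporters had 3 of 22 higher, with Abca8b at 66.2 CPM against 26.1 CPM, and 1 lower, Aqp1, whose log2 ratio was 0.15 in members chosen without Myoc.

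Within members, those with 3 or 4 of the genes were compared with those with 1. Of 7191 measured genes 237 (3.3%) were more than 2-fold higher with 3 or 4 genes and 217 (3.02%) more than 2-fold lower. Meox1 had 95.4 CPM with 3 or 4 genes and 0 UMIs with 1, and the interval of the ratio begins at 48.5. Adamtsl2 had 47.3 CPM against 0.525 CPM, which is 1 UMI (ratio 90.1, 15.6 to 3612), Col8a1 110 CPM against 3.15 CPM (34.8, 15.6 to 96.3) and Fbln7 79.6 CPM against 5.25 CPM. Mgp had 980 CPM against 239 CPM, Smoc2 871 CPM against 182 CPM and Bgn 1149 CPM against 402 CPM. On the lower side were Igfbp5, with 144 CPM against 1087 CPM (0.133, 0.114 to 0.153), Smpd3, a neutral sphingomyelinase, with 70.3 CPM against 561 CPM, and Procr, with 22.2 CPM against 109 CPM. Fn1 (fibronectin) had 605 CPM against 1822 CPM, and C3 1291 CPM against 2537 CPM. Of the other collagens 6 of 10 measured were higher and 0 lower.

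The 126 members with Myoc alone were compared with the other fibroblasts. Of 12504 measured genes 209 (1.67%) were more than 2-fold higher and 760 (6.08%) more than 2-fold lower, and the interval lay past 2-fold for 13 (0.104%) and 43 (0.344%). In the matrix lists, 0 of 8 small leucine-rich proteoglycans, 0 of 18 elastic fibre genes, 0 of 13 other collagens and 1 of 25 adhesive glycoproteins were past 2-fold higher, counts that lists of this size cannot tell from the share of all genes. Their median log2 ratios were 0.01, 0.11, 0.03 and 0.03, and 2 of the 18 elastic fibre genes were past 2-fold lower. The lists with the most lower genes were activation (6 of 18, median -0.57), guidance and adhesion (6 of 38, -0.42) and upper dermal genes (5 of 11, -0.98). Of the upper dermal genes Lef1 had 0, Col23a1 2 and Trps1 3 UMIs in these members. Igfbp5 had 1398 CPM in members with Myoc alone and 1308 CPM in the other fibroblasts, Procr 150 CPM against 162 CPM, and Lsamp 30.3 CPM against 30.1 CPM. Apod (apolipoprotein D) had 1548 CPM against 873 CPM (1.77, 1.69 to 1.86), and Ecscr, known as an endothelial membrane protein, 68.7 CPM against 24.8 CPM (2.77, 2.19 to 3.46). Both genes were named after their values were seen. Blood endothelial markers together had 65.5 CPM in members with Myoc alone and 61.1 CPM in the other fibroblasts, with Cdh5, Flt1, Emcn and Cldn5 at 0 in members with Myoc alone.

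The Cyp2f2 set was the most alike. Across 12653 genes, which are not independent replicates, Spearman's rho of the group levels was 0.974 between members and the Cyp2f2 set and 0.948 to 0.961 for the other 4, a description that depth and shared library enter. Against the Cyp2f2 set 124 of 9567 genes (1.3%) were more than 2-fold higher in members and 163 (1.7%) more than 2-fold lower. Col8a1 had 42.6 CPM in members against 1.89 CPM in the Cyp2f2 set (22.6-fold, 10.7 to 57.0), Bmp5 37.1 CPM against 3.24 CPM (11.5-fold, 6.37 to 22.6), Gfra1 52.7 CPM against 5.66 CPM and Frmpd4 77.0 CPM against 10.8 CPM. Lower in members were Aldh3a1, an aldehyde dehydrogenase, at 4.09 CPM against 72.6 CPM, the carboxypeptidase Cpz at 16.6 CPM against 116 CPM, the tendon transcription factor Mkx at 6.74 CPM against 44.2 CPM and Apoe at 281 CPM against 1094 CPM. Of the matrix lists, 0 of 8 small leucine-rich proteoglycans, 1 of 17 elastic fibre genes, 2 of 11 other collagens and 4 of 22 adhesive glycoproteins were past 2-fold higher in members than in the Cyp2f2 set, with median log2 ratios of 0.25, 0.19, 0.49 and 0.05. Mfap4 and Lsamp, among the largest ratios against all fibroblasts, were at 1.11 times the level of the Cyp2f2 set in both cases. Angptl1, Cdc42ep3 and Ramp1, also among the largest ratios, were at 1.21, 1.27 and 1.48 times the level of the Cyp2f2 set. The overlap of this set with the choice of members is by rule 0, but 189 of its 442 barcodes had a z-score above 0 for Cilp, Thbs4, Myoc and Hmcn2.

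Summed markers of other cell types lay on both sides of equal levels. Pericyte or smooth muscle markers (6 genes) had 46.9 CPM in members against 21.7 CPM, but 12.9 CPM in members with 3 or 4 of the genes, and 1 member held 3 or more of them. Skeletal muscle markers (6 genes) had 73.4 CPM (65.4 to 82.2) in members against 247 CPM (242 to 252). A UMI of them was, however, seen in 28.7% of members and 27.6% of the other fibroblasts. At least 3 of them were held by 15 members (3.44%) and by 2.82% of the other fibroblasts, so the shares do not follow the sums. Keratinocyte markers had 95.3 CPM against 115 CPM with Epcam at 0, macrophage markers 72.0 CPM against 60.1 CPM, and Schwann markers 28.7 CPM against 46.9 CPM with Sox10 at 0. Chondrocyte markers had 29.4 CPM against 23.2 CPM, with Acan, Col2a1, Col9a1 and Matn1 at 0 in members, and adipocyte markers 2.89 CPM against 16.8 CPM, with Adipoq, Plin1 and Retn at 0. An adipocyte marker was seen in 2.29% of members and 2.59% of the other fibroblasts. Melanocyte markers had 241 CPM against 236 CPM, of which Mitf alone, also a fibroblast gene here, gave 240 CPM and 234 CPM, and Dct and Tyrp1 were at 0 in members. Neutrophil markers had 4 UMIs in all members, and Ly6g had none. T and NK markers (6 genes) had 4.57 CPM (2.75 to 7.14) in members against 0.812 CPM (0.548 to 1.16) in the other fibroblasts, and 13.6 CPM in members with 3 or 4 of the genes, but a UMI of them was seen in 0.459% of members and 0.648% of the other fibroblasts. A single member held 3 or more of these markers, and Trac, Nkg7 and Klrb1c were at 0 in members.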

How the data were processed

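The authors deposited a matrix of UMI counts per gene and barcode, not normalized; the submitters' processing notes name Cell Ranger, without its version, and the mm10 build, and how barcodes were kept is not given in the sources used here. The hashtag library was not analysed here. The members and the 31 gene lists were chosen with earlier results of these data known, so no result is independent support for them. Counts were summed per group and scaled to CPM. A gene was measured with at least 50 UMIs over both groups, outside the 24 set genes and 7 filter genes, and 0 was read as 3 UMIs in log2 ratios. Past 2-fold means the ratio itself. Named genes are the 4 set genes, the 15 largest ratios (a UMI in 10% of members), the 10 smallest (10% of other fibroblasts), per list the 3 most abundant and the 3 ratios farthest from 1, and other types' markers at 100 CPM; list genes past 2-fold were added later. Neighbours (15) came from 30 principal components of 2000 variable genes. Doublets were called with scrublet (Scanpy 1.11.5, expected rate 6%) and kept. Barcodes with at least 2 Ptprc UMIs (1680) and with at least 10 keratin UMIs (1040) served as other types. Shares were thinned to 3000 UMIs, or 1000 as an alternative. The ratio script was tested on simulated data. Promoters are RefSeq's (GRCm38.p6), and the gene starts set beside them GENCODE's. Computation ran under Python 3.11.15 with SciPy 1.17.1, NumPy 2.4.6 and scikit-learn 1.9.0; tables were handled in pandas 2.3.3 and figures drawn in matplotlib 3.10.9.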

Additional observations from a re-analysis of the deposited data

How the results depend on the processing

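No paired analysis was possible because there is 1 library and no replicate. Settings for the rule, filters, weighting and depth were varied 1 at a time, and 2 choices of members (2 or more of the 4 genes, without those with Myoc alone) and the alternatives for comparisons within fibroblasts were added after seeing the data. The member share of 12.4% was 8.80% with a z-score at least 0.5 above every other set, 9.76% without Myoc in the rule, 7.05% with 2 or more genes and 9.13% without Myoc-alone members. The 341 higher genes were 547 without Myoc in the rule, 2722 with no UMI minimum, 159 with 200 UMIs and 536 without Myoc-alone members. With no minimum, a gene with 0 UMIs in members, read as 3, could count as higher. The 2722 is thus inflated by genes not seen in members. The 560 lower genes were 946 with no minimum, 215 with 200 UMIs and 905 with 2 or more genes. The neighbour share of 42.4% was 44.2% with the wider margin, 40.0% without Cilp in the rule, 50.9% without Myoc, 39.8% with 30 neighbours, 59.1% with 2 or more genes and 51.2% without Myoc-alone members. At 200 UMIs the higher and lower genes were 82 and 75 for 3 or 4 genes over 1, 26 and 343 for Myoc alone, and 32 and 71 over the Cyp2f2 set. Of 126 named genes past 2-fold, 122 to 126 kept their direction in each setting and 94 to 126 stayed past 2-fold, the fewest (94) without Cilp in the rule and 108 with every barcode weighing the same. The log2 ratio reversed for Acta2 (-1.71 with 20 collagen and Dcn UMIs, -2.71 without Hmcn2 in the rule, -1.56 with 2 or more genes), Tagln (-0.33, -1.12 and -2.99 in the same settings), Masp1 (-0.99 without Cilp), Mki67 (0.19 with every barcode weighing the same), and, without Myoc, Trps1 (0.16), Col11a1 (1.64), Lrrc15 (0.061) and Aqp1 (0.15). For Acta2 and Tagln 1 barcode held most UMIs; for the others the cause was not tested. At 1000 UMIs the thinned shares in members were 42.8% (Cilp), 12.4% (Thbs4), 52.4% (Myoc) and 16.8% (Hmcn2). Depth limits genes with few UMIs in members.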

Other observations

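Genes outside the lists also varied among members. S100g, which encodes a calcium-binding protein, had 87.5 CPM in members with 3 or 4 of the 4 genes and 0 UMIs in members with 1. Grm8, a metabotropic glutamate receptor, had 90.4 CPM against 5.78 CPM (15.6-fold, 8.45 to 32.1), and Kcnma1, a calcium-activated potassium channel, 35.1 CPM against 2.10 CPM. Jazf1, a zinc finger transcriptional regulator, had 39.5 CPM against 2.63 CPM. Lower with 3 or 4 genes were Robo2, a Slit receptor, at 7.17 CPM against 79.3 CPM, Akr1c18, a steroid dehydrogenase, at 15.8 CPM against 210 CPM, and Aldh1a3, which makes retinoic acid, at 8.61 CPM against 80.4 CPM.

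Myoc had a UMI in 23 of 1040 keratinocyte barcodes, 2.21% (1.41% to 3.30%).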
